A study of Mus musculus with 3 samples.

Results

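A set of 10 predicted mouse genes made of satellite-like repeat sequence, Gm10800 and Gm10801 on chromosome 2 and Gm11167, Gm11168, Gm10715, Gm10717, Gm10718, Gm10720, Gm10722 and Gm16869 on chromosome 9, was followed through 3 RNA interactome (RIA-seq) libraries. The genes were taken by symbol, as 10 of the 26887 pairs of gene name and chromosome in the count tables, and they were selected on measured values, namely folds over the Actb control that were known to be high. Their folds over Actb RIA-seq are therefore descriptions and carry no test. RIA-seq captures, with one chosen RNA, the RNAs that fixation holds together with it. Cells of the E14 mouse ES cell line (strain 129/Ola), grown without feeder cells on gelatin with serum and LIF, were fixed with glutaraldehyde, quenched with glycine and broken by lysis and sonication. The material was incubated overnight with oligonucleotides antisense to a single target and collected on streptavidin beads, and the eluted RNA was treated with DNase before cDNA synthesis. The control library, Actb RIA-seq, was made with oligonucleotides against the mRNA of β-actin. Oligonucleotides against Malat1, a nuclear long noncoding RNA, gave Malat1 RIA-seq, and those against Tfrc, the transferrin receptor mRNA, gave Tfrc RIA-seq. There was 1 library per condition, so no difference between conditions could be compared with a spread between replicates, and every interval covers counting error only. No pulldown without oligonucleotides and no library of input RNA was analysed here, so a fold gives 1 pulldown relative to another and not enrichment over the RNA of the cell.

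Satellite DNA is tandemly repeated sequence that surrounds the centromeres. In mouse, the AT-rich major satellite makes up most of the pericentromeric heterochromatin, a compact chromatin marked by H3K9 methylation and HP1 proteins, and it is transcribed at low levels, also in ES cells. Genome assemblies hold little of such arrays, and gene predictions made on the stretches they do hold need not correspond to functional genes. No satellite consensus sequence was compared here, and the term satellite-like rests on the repeat structure described next.

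The genes of each chromosome lie close together. The chromosome 9 cluster, bounded by its 8 members, covers 38035 bases (chr9:3000282-3038316, build NCBIM37) with a G+C content of 34.9%, and the chromosome 2 cluster covers 5065 bases (chr2:98502394-98507458) with 36.6%. When the chromosome 9 cluster was laid over itself with a shift of 1 to 1000 bases, the bases matched best at a shift of 234 bases, where 71.3% were identical, against a median of 31.3% over all shifts. At 468 bases, the next multiple, 59.2% matched. The same shift of 234 bases gave 24.1% in an equally long stretch beside the cluster (chr9:3048317-3086351). That stretch had a period of its own, with 54.1% at 31 bases. Over the whole chromosome 2 cluster, 32.6% matched at 234 bases, against a median of 26.9%, and at most 35.0% at any shift, although only part of this cluster is repeat.

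**Figure D1:**
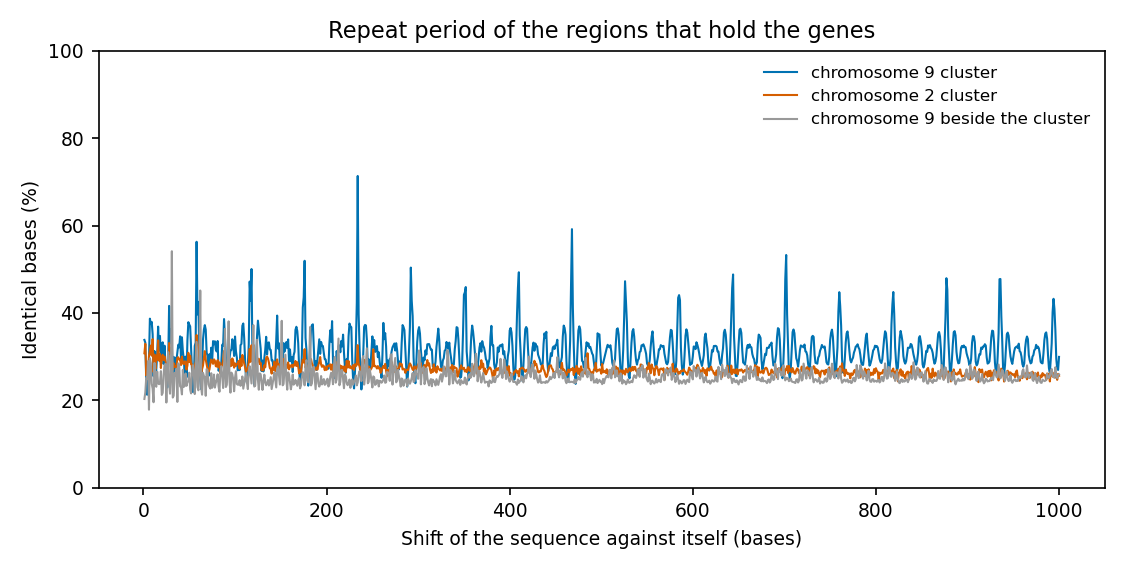
Percentage of identical bases (y axis) when each region is shifted against itself by 1 to 1000 bases (x axis). The chromosome 9 cluster (blue) peaks at 71.3% at 234 bases and again at 468 bases, whereas the whole chromosome 2 cluster (orange) stays at or below 35.0% and the stretch of chromosome 9 beside the cluster (grey) peaks at 31 bases.

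A repeat unit was read from the array as the stretch of 234 bases most like the stretch that follows it. It is shown with 4 copies because they show what the members have in common. All are written 5′ to 3′ in the orientation of the unit, and capitals mark the bases that differ from the unit. The unit (chr9:3027538-3027771, plus strand) and the next copy (chr9:3027772-3028005, plus strand, 5 differences, 97.9% identity) lie in an intron of Gm16869. The third sequence (chr9:3014090-3014323, plus strand, 9 differences, 96.2%) lies in an exon of Gm16869, a gene of the minus strand, so the RNA of Gm16869 would hold its reverse complement. The same stretch lies in part in exons of Gm10721, a predicted gene of the plus strand that is not a member. The last pair lies on chromosome 2, in part in exons of Gm10801 (chr2:98503986-98504219, plus strand, 19 differences, 91.9%) and of Gm10800 (chr2:98507210-98507443, minus strand, 13 differences, 94.4%).
Unit: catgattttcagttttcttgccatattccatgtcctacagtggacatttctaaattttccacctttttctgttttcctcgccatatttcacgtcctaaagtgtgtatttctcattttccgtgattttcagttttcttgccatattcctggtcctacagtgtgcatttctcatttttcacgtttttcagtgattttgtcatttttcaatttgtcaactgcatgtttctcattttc
Next copy: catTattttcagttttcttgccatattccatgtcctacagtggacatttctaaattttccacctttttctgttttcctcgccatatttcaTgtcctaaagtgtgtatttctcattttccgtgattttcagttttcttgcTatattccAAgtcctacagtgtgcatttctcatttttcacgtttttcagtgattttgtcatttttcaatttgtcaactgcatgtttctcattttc
Gm16869: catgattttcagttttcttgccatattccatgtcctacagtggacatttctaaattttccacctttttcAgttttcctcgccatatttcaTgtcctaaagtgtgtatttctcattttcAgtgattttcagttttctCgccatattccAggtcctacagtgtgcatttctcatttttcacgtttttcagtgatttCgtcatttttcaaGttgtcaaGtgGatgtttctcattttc
Gm10801: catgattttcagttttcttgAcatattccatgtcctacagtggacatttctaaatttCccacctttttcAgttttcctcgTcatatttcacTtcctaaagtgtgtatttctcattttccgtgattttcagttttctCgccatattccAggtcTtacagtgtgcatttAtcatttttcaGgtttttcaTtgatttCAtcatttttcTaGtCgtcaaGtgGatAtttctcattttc
Gm10800: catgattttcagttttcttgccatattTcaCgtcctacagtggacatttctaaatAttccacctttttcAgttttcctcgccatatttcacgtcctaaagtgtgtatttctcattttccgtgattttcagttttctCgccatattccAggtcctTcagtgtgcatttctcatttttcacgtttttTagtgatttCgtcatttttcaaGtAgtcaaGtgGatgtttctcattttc

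A search of the genome with 2 adjacent units (blastn, expectation value at most 1e-10) gave 137 merged hits that covered 301055 bases. Contigs without a chromosome held 73.1% of these bases, chromosome 9 held 12.9%, chromosome X 8.95%, chromosome 11 1.96% and chromosome 2 0.559%. A single hit covered 100% of the chromosome 9 cluster. It held 98 full-length copies with a median identity of 94.4% to the unit (range 78.0 to 100%). The unit itself is among these copies and matches at 100%. On chromosome 2, 4 hits covered 32.5% of the cluster, and 1 of them ran over the whole 755 bases of Gm10800. They held 3 full-length copies of 91.9 to 94.4% identity. Exons of the members were nearly all repeat, with 100% of the exonic bases in hits for 9 members and 98.4% for Gm10801.

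According to the annotation (GENCODE on NCBIM37), 9 members are protein-coding predictions whose exons, 510 to 684 bases in all per gene, are coding sequence without a UTR. Whether any of them gives a protein was not measured here. The exception is Gm16869 (ENSMUSG00000087580), annotated as a lincRNA on the minus strand at chr9:3000282-3038313, with 7 exons of 2692 bases in all and 35340 bases of intron. It spans nearly the whole cluster, so that every other chromosome 9 member lies on the opposite strand within it or reaches just past its end. Its exons overlap those of Gm11168 by 235 bases, of Gm10715 by 293 bases and of Gm10718 by 156 bases. Gm10800 (ENSMUSG00000075014, chr2:98506704-98507458, minus strand) and Gm10801 (ENSMUSG00000075015, chr2:98502394-98504240, plus strand) form the chromosome 2 pair. Along chromosome 9, all on the plus strand, follow Gm10722 (chr9:3000922-3002330), Gm11168 (chr9:3004457-3005194), Gm10720 (chr9:3015654-3017210), Gm11167 (chr9:3020155-3021593), Gm10718 (chr9:3023547-3025218), Gm10717 (chr9:3025417-3026387) and Gm10715 (chr9:3037111-3038316). In the whole annotation, 15 genes had at least 100 exonic bases in hits of the unit: the 10 members and 5 further predictions of the chromosome 9 cluster, Gm10106, Gm10716, Gm10719, Gm10721 and Gm17535.

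**Figure D2:**
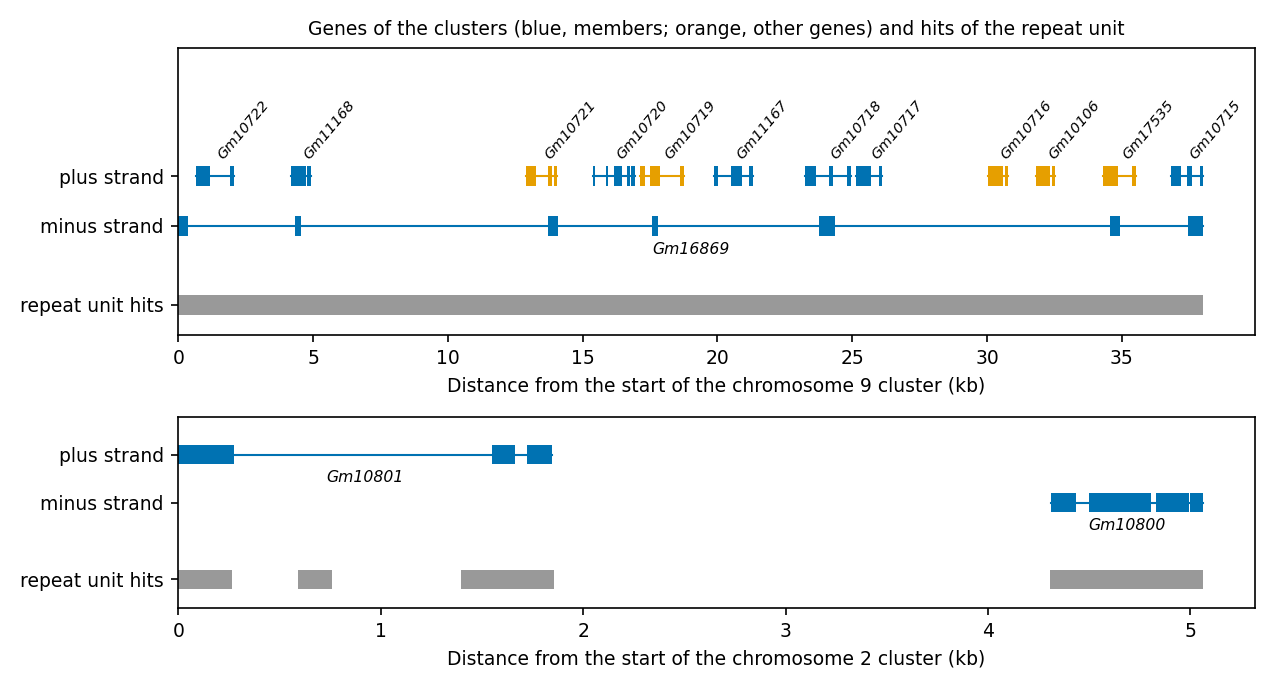
Exons (boxes) and introns (lines) of the members (blue) and of the other genes with the repeat in their exons (orange), with hits of the repeat unit in grey, by distance in kb from the start of the cluster on chromosome 9 (top) and on chromosome 2 (bottom). The hits cover 100% of the chromosome 9 cluster and 32.5% of the chromosome 2 cluster, where they lie over the exons of Gm10801 and Gm10800.

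The shared sequence limits what a count on one member means. Of the distinct 30-base stretches in the exons of a chromosome 9 member, between 63.7% (Gm11168) and 93.4% (Gm11167) also occur in exons of another member, and between 0% (Gm11167, Gm10720) and 33.4% (Gm10717) occur at 1 place of the genome. In the chromosome 2 genes, 28.8% of stretches were at 1 place for Gm10800 and 53.1% for Gm10801. In Gm16869, 6.79% of stretches were at 1 place, and the median stretch had 9 places. The most repeated stretch of each chromosome 9 member had 139 places. How reads with several matches were placed, and whether strand was used in counting, is not given in the sources used here. The division of counts among members, and between the members and copies elsewhere in the genome, is therefore uncertain, and the members are no replicates of one another. No 20-base stretch of any member, introns included, was shared on either strand with the exons of Actb, Malat1 or Tfrc. The oligonucleotides themselves were not analysed here.

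Library totals in the order Actb, Malat1 and Tfrc were 10405209, 10078439 and 14553941 counts. The limit that a count of 0 allows, taken as 3 counts, corresponds to 0.288, 0.298 and 0.206 counts per 1000000 (CPM). The targets served as a check of the labels. Actb had 759974 counts in its own library, and 8964 and 13445 in Malat1 and Tfrc RIA-seq. Malat1 was 5.81-fold (95% interval 5.72 to 5.90) and Tfrc 2.69-fold (2.42 to 2.99) higher in its own library than in Actb RIA-seq. Malat1 was also 3.84-fold (3.78 to 3.90) higher in Tfrc RIA-seq, and Tfrc 2.32-fold (2.08 to 2.60) higher in Malat1 RIA-seq. Tfrc was thus only 1.16-fold (1.07 to 1.25) higher in its own library than in Malat1 RIA-seq, and 1727 genes had a higher fold over the control than Tfrc in Tfrc RIA-seq. The cells carried ES cell markers in all libraries, with summed levels of 2061, 2547 and 2946 CPM for Pou5f1, Nanog, Sox2, Esrrb, Zfp42 and Klf4, in the order Actb, Malat1, Tfrc RIA-seq. The 6 markers of fibroblast feeder cells summed to 81.4, 79.0 and 83.0, nearly all from Vim and Thy1, and Col3a1 and S100a4 were at 0 in Actb RIA-seq. Most genes had a higher share in the target libraries than in Actb RIA-seq, and the cause was not tested. Actb took 7.30% of the counts in its own library. The median fold of 14572 genes was 1.82 for the Malat1 library, and that of 14691 genes was 1.56 for the Tfrc library, among genes that reached 10 counts in both libraries.

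Summed over the 10 members, the control library held 502 counts, Malat1 RIA-seq 4515 and Tfrc RIA-seq 10653. As shares of the library total these are 48.2, 448 and 732 CPM, or 0.00482%, 0.0448% and 0.0732%. The level was lowest in the control, higher in Malat1 RIA-seq and highest in Tfrc RIA-seq. It was 9.29-fold higher in Malat1 RIA-seq than in the control (95% interval 8.47 to 10.2) and 15.2-fold higher in Tfrc RIA-seq (13.9 to 16.6), which is 5.10 and 9.73 times the median fold of all genes. With the libraries scaled by the median ratio over genes in place of the total, the folds were 5.09 and 9.70. Both folds use the same control library and are thus not independent. These folds compare recovery between pulldowns of bulk lysates. They measure neither the amount of this RNA per cell nor the number of cells that hold it.

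A gene could have 2 counts per library, one listed under its Ensembl identifier and one under the reference name Genome. What separates the 2 kinds is not given in the sources used here. Genome counts were 5.25%, 19.0% and 15.1% of all counts in Actb, Malat1 and Tfrc RIA-seq. Of the members' counts they were 0% in the control (95% Wilson interval up to 0.759%), 0% in Malat1 RIA-seq (up to 0.0850%) and 0.0563% in the Tfrc library (0.0258 to 0.123%). The 6 Genome counts in Tfrc RIA-seq fell on Gm10800 (4) and Gm16869 (2). The members were thus counted nearly entirely under their Ensembl identifiers, and sums and Ensembl-ID counts gave the same values in both other libraries. For Gm16869 this could be set against other genes with long introns. Among 1650 genes with at least 10 kb of intron and 1000 counts in Tfrc RIA-seq, the median share of Genome counts was 24.3%, whereas Gm16869, with 35340 bases of intron, had 0.0311% (0.00852 to 0.113%). In Malat1 RIA-seq the median of 1281 such genes was 25.0%, and Gm16869 had 0 of 2789 counts (up to 0.138%). Including Gm16869 itself, 9 of the 1650 genes and 5 of the 1281 genes were that low. In Actb RIA-seq, with a minimum of 100 counts, the median of 5290 genes was 14.5%. There, 56 genes were at 0%, among them Gm16869 with 0 of 289 counts. Unlike an ordinary long gene, Gm16869 lies with 100% of its span in repeat hits, and exons of other members lie in its introns. Whether this shaped its Genome share was not tested.

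Gm16869, the lincRNA prediction, carried most of the counts, with 289, 2789 and 6438 in the control, the Malat1 and the Tfrc library. These correspond to 27.8, 277 and 442 CPM. It made up 57.6%, 61.8% and 60.4% of the members' counts, a similar part in the 3 libraries. Over the control it was 9.96-fold (8.82 to 11.3) higher with Malat1 oligonucleotides and 15.9-fold (14.2 to 18.0) higher with Tfrc oligonucleotides. The interval of the difference between the target libraries also lay above 1, with 1.60-fold more in Tfrc than in Malat1 RIA-seq (1.53 to 1.67).

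The chromosome 2 predictions, Gm10800 and Gm10801, followed the order control, Malat1, Tfrc. Gm10800 had 129, 864 and 2605 counts, or 12.4, 85.7 and 179 CPM. Its level was 6.91-fold (5.74 to 8.39) above the control in the Malat1 library and 14.4-fold (12.1 to 17.4) above it in the Tfrc library. Gm10801 had 19, 171 and 459 counts, or 1.83, 17.0 and 31.5 CPM. This gave folds of 9.29 (5.77 to 15.8) and 17.3 (10.9 to 29.0). Between the target libraries, the pair was 2.05-fold (1.91 to 2.20) higher in Tfrc RIA-seq, with 2.09 (1.93 to 2.26) for Gm10800 and 1.86 (1.56 to 2.23) for Gm10801.

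Of the chromosome 9 coding predictions, Gm10718 was the most abundant, also per kb of exon. It had 36, 344 and 647 counts in Actb, Malat1 and Tfrc RIA-seq, or 3.46, 34.1 and 44.5 CPM, with folds of 9.87 (6.99 to 14.3) and 12.8 (9.18 to 18.5). Part of its exonic sequence lies opposite an exon of Gm16869, where their reads cannot be told apart without strand. Gm11167 had 10, 136 and 188 counts, or 0.961, 13.5 and 12.9 CPM, with folds of 14.0 (7.41 to 29.9) and 13.4 (7.15 to 28.5). Gm10720 had 10, 107 and 134 counts, or 0.961, 10.6 and 9.21 CPM, with folds of 11.0 (5.78 to 23.7) and 9.58 (5.05 to 20.4). In contrast to Gm16869 and the chromosome 2 pair, these last 2 genes had Tfrc-to-Malat1 ratios whose intervals included 1, 0.957 (0.764 to 1.20) for Gm11167 and 0.867 (0.668 to 1.13) for Gm10720.

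The other 4 chromosome 9 predictions had under 10 counts in the control. Gm10717 had 7, 42 and 76 counts, with folds of 6.19 (2.76 to 16.3) and 7.76 (3.59 to 20.0). Gm10722 had 2, 35 and 51 counts, and its ratios of 18.1 (4.64 to 155) and 18.2 (4.79 to 155) had wide intervals. The few control counts set little limit on the size of these folds, and all 4 intervals lay above 1. Gm11168 had 0, 15 and 27 counts. Measured against the limit of 3 counts in the control library, it was at least 5.16-fold higher in Malat1 RIA-seq and at least 6.43-fold higher in Tfrc RIA-seq. Gm10715 had 0, 12 and 28 counts and was at least 4.13-fold and at least 6.67-fold higher. These bounds leave out the counting error of the target library. Exact lower 95% limits were 3.70 and 4.88 for Gm11168 and 2.87 and 5.08 for Gm10715. Both genes overlap exons of Gm16869 on the opposite strand.

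**Figure D3:**
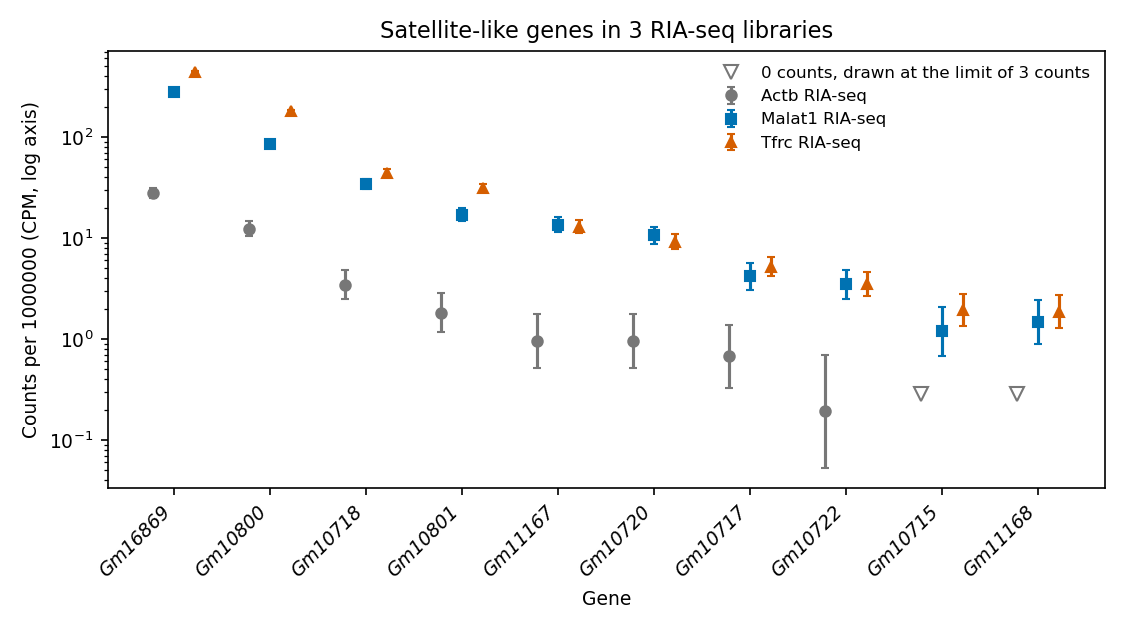
Level of each member (x axis) in counts per 1000000 of the library total (CPM) (y axis, log axis) in Actb (grey circles), Malat1 (blue squares) and Tfrc RIA-seq (orange triangles), with 95% Wilson intervals for counting error and 1 library per condition. Open triangles mark Gm10715 and Gm11168 with 0 counts in the control, drawn at the limit of 3 counts, and each other member lies lowest in Actb RIA-seq, from 0.192 for Gm10722 to 27.8 for Gm16869.

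All 10 members were at least 2-fold higher in Malat1 RIA-seq, bounds included. Because the folds had chosen the members, nothing is read from this count, and of the 14572 genes past the minimum of 10 counts in each of the compared libraries 42.1% reached that fold. At least 5-fold was reached by 9 of 10 members, against 1.85% of all genes. In Tfrc RIA-seq, 10 of 10 members were at least 2-fold higher, against 28.6% of all genes, and 10 of 10 at least 5-fold, against 0.973%. The 5-fold counts include bounds against 3 control counts, that of Gm11168 in both and that of Gm10715 in Tfrc RIA-seq. Exact lower limits were below 5 in both libraries for Gm11168, Gm10717 and Gm10722. The minimum of 10 counts was passed by 6 members, namely Gm16869, Gm10800, Gm10801, Gm10718, Gm11167 and Gm10720. All 6 were at least 5-fold higher in both target libraries, and the shares of all genes rest on the same minimum. The median fold over the 10 members, with bounds at their value, was 9.58 for Malat1 oligonucleotides and 13.1 for Tfrc oligonucleotides.

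**Figure D4:**
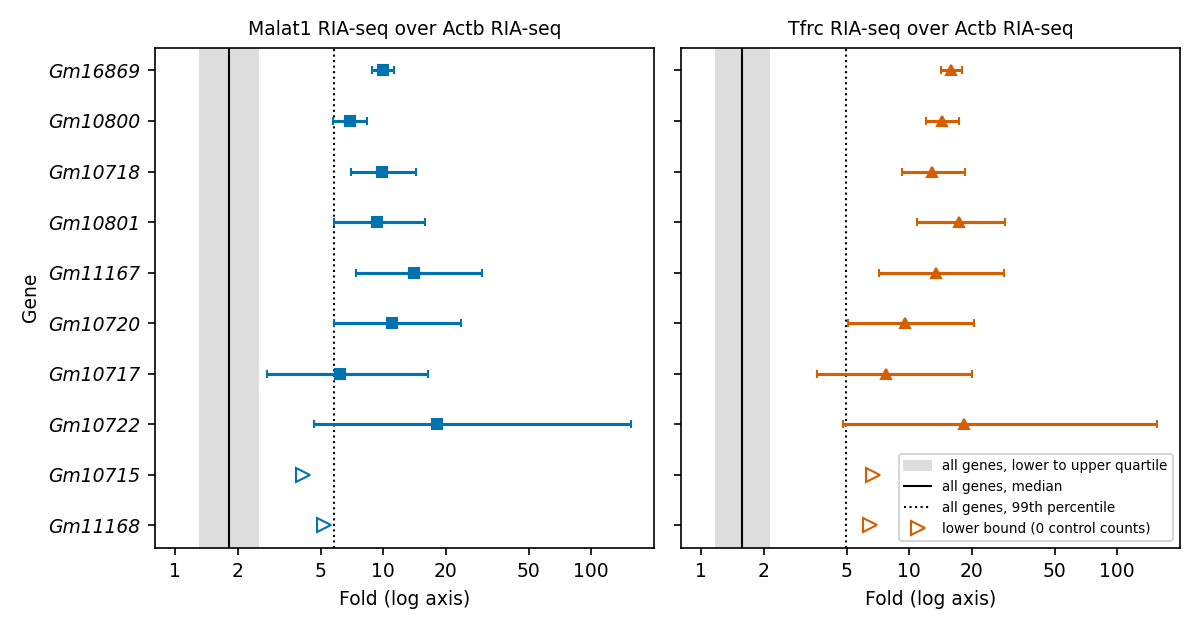
Fold of each member over Actb RIA-seq (x axis, log axis) in Malat1 RIA-seq (left) and Tfrc RIA-seq (right), with 95% exact intervals for counting error and open triangles for lower bounds. The grey band and lines give the lower to upper quartile, median and 99th percentile of all genes. The measured folds run from 6.19 to 18.1 on the left and from 7.76 to 18.2 on the right. As point values they exceed the 99th percentiles of 5.76 and 4.93, but the members were selected on high folds. The intervals of Gm10717 and Gm10722 reach below these percentiles in both panels, and that of Gm10800 on the left. On the left, both lower bounds also lie below the percentile.

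Ordered by fold among genes past the minimum, members held the first 3 places in Tfrc RIA-seq (Gm10801, Gm16869 and Gm10800), the fourth was Gm10721, and Gm11167 and Gm10718 followed. Gm10721 is a further prediction of the chromosome 9 cluster with the repeat in its exons. In Malat1 RIA-seq the members were spread over lower places, with Gm11167 at place 2, Gm10720 at place 9, Gm16869 at place 17, Gm10718 at place 19 and Gm10801 at place 21. A higher fold than that of Gm10800 was measured for 67 genes. Since these same folds had chosen the members, nothing is read from their places. The intervals given above for these folds overlap widely, so the order among members is not resolved by the counts in either library, except that Gm10800 lay below Gm16869 in Malat1 RIA-seq.

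**Figure D5:**
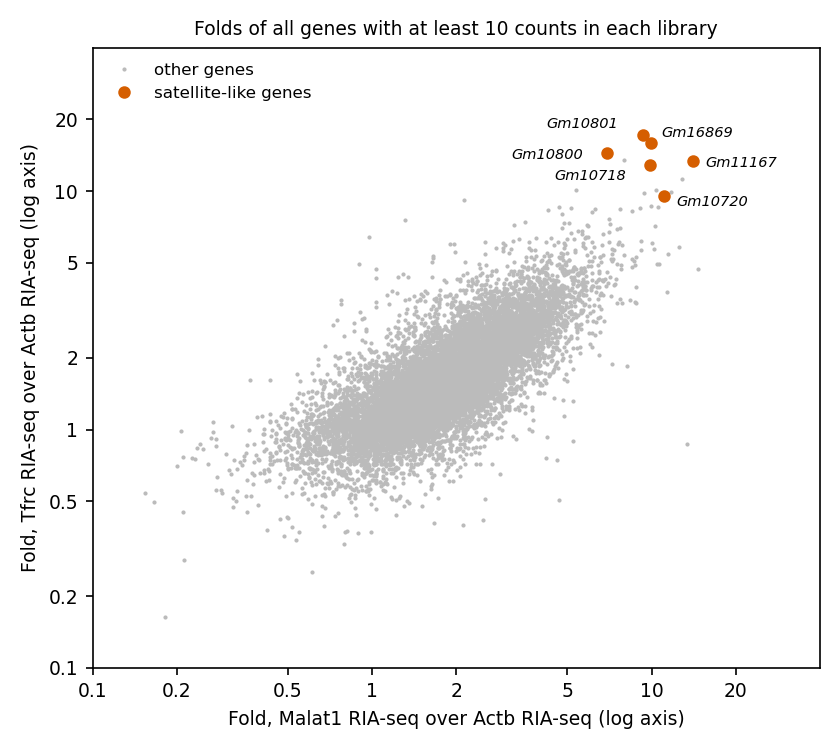
Fold over the control for Malat1 RIA-seq (x axis, log axis) and for Tfrc RIA-seq (y axis, log axis), drawn for 14528 genes with 10 or more counts in each library, of which 9 lie outside the axes. Both axes share the control library, and the 6 members drawn (orange) lie at the upper right, with Gm10800, Gm10801 and Gm16869 further toward Tfrc than Gm11167 and Gm10720.

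The Tfrc and Malat1 libraries can also be compared with each other, without the control. All members together were 1.63-fold higher in Tfrc RIA-seq (1.58 to 1.69), where the median over 16430 genes was 0.867. A ratio of at least 2 was reached by 1 of 10 members, Gm10800, against 1.92% of all genes, and 8 of 10 members had a ratio above 1, against 32.1% of all genes. The folds that chose the members contain the counts of these libraries, and the members share sequence. These numbers of members are therefore descriptions only. As sums, the chromosome 2 pair had a higher ratio than the chromosome 9 members, 2.05 (1.91 to 2.20) and 1.51 (1.45 to 1.57). Gm10800 held 2605 of the pair's 3064 counts in Tfrc RIA-seq. The interval of Gm10801 (1.56 to 2.23) overlapped that of Gm16869 (1.53 to 1.67). The 5 further chromosome 9 genes with the repeat in exons summed to 1.63 (1.38 to 1.94), which overlapped the pair. A difference between the chromosomes is thus not shown gene by gene. Without Gm16869, the chromosome 9 members were at 1.15 (1.05 to 1.27), from 691 and 1151 counts. The intervals of the chromosome 2 and chromosome 9 sums did not overlap, which concerns the reads of these 2 libraries and not the conditions. Gm10718 was intermediate at 1.30 (1.14 to 1.49). For Gm11168, Gm10715, Gm10717 and Gm10722 the ratios were 1.25 (0.640 to 2.52), 1.62 (0.796 to 3.49), 1.25 (0.849 to 1.87) and 1.01 (0.644 to 1.60), and no difference was detectable at this depth.

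Since the exons differ in length, levels of different genes were compared per kb of exon. In Tfrc RIA-seq, Gm10800 was highest with 271 CPM per kb (261 to 282), followed by Gm16869 with 164 (160 to 168), Gm10718 with 65.9 (61.0 to 71.1) and Gm10801 with 61.8 (56.4 to 67.8). Gm10718 and Gm10801 did not differ beyond their intervals. Next came Gm11167 with 19.0 (16.4 to 21.9), Gm10720 with 13.6 (11.5 to 16.1) and Gm10717 with 7.63 (6.10 to 9.55). The last places were held by Gm10722 with 5.38 (4.09 to 7.08), Gm10715 with 2.85 (1.97 to 4.12) and Gm11168 with 2.76 (1.90 to 4.02), each of which overlapped its neighbour. The first 4 genes kept their order in Malat1 RIA-seq, with 130, 103, 50.6 and 33.3, and in Actb RIA-seq, with 18.8, 10.3, 5.13 and 3.58. Per kb, the chromosome 9 coding predictions thus ranged widely although their exons share most 30-base stretches, and whether this reflects placement of reads among copies was not tested.

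The 5 further genes with the repeat in their exons, which are not among the members, had 26, 192 and 453 counts in all, or 2.50, 19.1 and 31.1 CPM. They stood 7.62-fold (5.05 to 12.0) above the control in the Malat1 library and 12.5-fold (8.39 to 19.3) above it in the Tfrc library. The ratio of Tfrc to Malat1 RIA-seq was 1.63 (1.38 to 1.94). Gm10721 held most of these counts, with 15, 116 and 283 and folds of 7.98 (4.65 to 14.7) and 13.5 (8.04 to 24.4). Gm10719 had 6, 49 and 88 counts, with 8.43-fold (3.61 to 24.1) and 10.5-fold (4.63 to 29.3) higher levels. Gm10106 (1, 6 and 13 counts), Gm10716 (3, 9 and 33) and Gm17535 (1, 12 and 36) were too low in the control for a firm fold. These genes share sequence with the members, so reads may have been divided among them and their values are not independent.

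Likeness to the summed members was also measured over all genes, as the straight distance between pairs of log2 folds over the control (Malat1 and Tfrc RIA-seq). Among 14522 other genes with at least 10 counts in each library, Gm10721 was nearest with a distance of 0.28. The next 4 were Zfp521 (0.61), Tmem67 (0.63), Klk14 (0.64) and Mylk4 (0.70), none of which holds the repeat in its exons. Zfp521 encodes a zinc finger protein, and its folds were 10.4 and 10.1. Tmem67 encodes a membrane protein of the cilium, with folds of 9.40 and 9.79. Klk14 encodes a kallikrein protease, and its folds were 12.8 and 11.2. For Mylk4, which encodes a myosin light chain kinase, they were 11.8 and 9.95. Large folds in both target libraries thus also occurred in genes without the repeat, here with few control counts (10 to 25 in these 4).

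Proteins of pericentric heterochromatin act where satellite sequence lies, so their mRNAs were listed for comparison. The list also held some proteins of the centromere itself and of other chromatin. Of 28 listed gene symbols, 26 were present in the libraries, and 25 had at least 10 counts in each pair of libraries. The absent symbols are newer names of listed genes that were present. In Malat1 RIA-seq, 9 of the 25 were at least 2-fold higher than in the control, against 42.1% of all genes, 0 reached 5-fold, against 1.85%, and the median fold was 1.72 against 1.82 for all genes. The range was from 0.725 for Cbx3 to 3.27 for Cbx1, both HP1 proteins that bind methylated H3K9. In Tfrc RIA-seq, 5 of the 25 were at least 2-fold higher, against 28.6% of all genes, 0 reached 5-fold, against 0.973%, and the median was 1.46 against 1.56. The lowest was Dnmt3b, a DNA methyltransferase, at 1.02. Both medians of the list lay slightly below those of all genes.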

How the data were processed

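Reads were counted by the authors, who deposited for each of the 3 libraries a table of raw read counts per gene, as whole numbers without normalization. The submitters' processing notes name Bowtie 0.12.7 and the builds mm9 and NCBIM37. Counting rule, strand and handling of reads with several matches are not given in the sources used here. Groups were taken from the labels, which name the antisense oligonucleotides, with 1 library each.

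For each pair of gene name and chromosome, Ensembl-ID and Genome counts were added and divided by the library total. Folds are ratios of these shares with a pseudocount of 0, with an exact conditional (Clopper-Pearson) interval at the 95% level. Shares have Wilson intervals. Where the control had 0 counts, 3 counts were used in its place, and the fold is a lower bound. Reads are PCR products without molecular identifiers, so intervals and limits cover counting error only. With 1 library per condition no test was made, although the study's own comparison is a chi-square test on counts. Genes for distributions needed at least 10 counts in both libraries. The computation was tested on simulated data. The members and the gene lists were chosen with earlier results of these data known. Genes named were the members, other genes with counts within the clusters, the 5 genes nearest in both folds, the targets, and the highest and lowest of the heterochromatin list, of which 1 value is not reported here.

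Sequences and gene models came from NCBIM37 and its GENCODE annotation, which held 98.6% of 24080 identifiers. The repeat was searched with BLAST+ 2.17.0. Scripts used samtools 1.23.1, matplotlib 3.10.9, scipy 1.17.1, numpy 2.4.6 and Python 3.11.15. The alternatives were 3 other scalings, a pseudocount of 1, Ensembl-ID or Genome counts only, a minimum of 10 counts and leaving out each member. The MARIO libraries of the study were not analysed here.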

Additional observations from a re-analysis of the deposited data

How the results depend on the processing

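The summed fold over Actb RIA-seq depended mostly on the scaling. In Malat1 RIA-seq, 9.29 became 5.09 with the median ratio over genes, 5.83 with the upper quartile and 5.81 with a total without the 10 genes of most counts. In Tfrc RIA-seq, 15.2 became 9.70, 12.2 and 10.8 under the same settings. The scaling also moves the median fold of all genes, by factors of 1.82, 1.59 and 1.60 for Malat1 RIA-seq and 1.56, 1.24 and 1.40 for Tfrc RIA-seq, so values relative to other genes did not change. Without Gm16869 the sum was 8.37-fold higher in Malat1 RIA-seq and 14.1-fold in Tfrc RIA-seq. With a minimum of 10 counts in both libraries, 6 members could be counted at 2-fold or more in each comparison, because the others had fewer control counts. A pseudocount of 1, Ensembl-ID counts only and leaving out each other member kept the summed folds within 9.12 to 10.1 and 14.9 to 15.4. Of 112 values of single members under alternatives, 28 moved beyond their interval and 0 changed direction. Chosen after seeing the data, a sum over the 15 genes with the repeat in exons gave 9.20 and 15.0, and a threshold of 5-fold gave 9 and 10 members. Genome counts only gave no value, since they were 0 for the members in Actb and Malat1 RIA-seq. No paired analysis was possible because each condition had 1 library. The depth limits the 4 members with under 10 control counts.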
